A study of Homo sapiens with 32 samples.

Results

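The comparison of 300 minutes with 0 minutes of release sets newly made RNA of HUH7 cells well after their return from a mitotic block against newly made RNA at the block's end. HUH7 is an established human hepatoma line, and nascent RNA was captured through 5-ethynyl uridine (EU), a uridine analogue that cells build into the transcripts they are making. Of 24242 genes in the table, the comparison took the 18190 with at least 10 FPKM (a fragment count scaled to length and to sequencing depth) at 300 minutes, at 0 minutes or at both. The 300 minute group was held in 2 mM thymidine for 24 hours, freed of it for 2 hours, held in nocodazole at 0.06 ug/mL for 16 hours, shaken off, washed, replated and labelled at 300 minutes of release. The 0 minute group passed through the same thymidine, nocodazole and shake-off and was labelled at 0 minutes. Each label pulse was 0.5 mM EU for 40 minutes, and the sources used here do not say if a time marks its start or its end. The groups at 40, 80, 105 and 165 minutes and an asynchronous culture were used to place single genes in time, while the other groups of the 32 samples, unlabelled controls among them, were not analysed here.

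In mitosis chromosomes condense, most transcription factors leave them and RNA synthesis drops to a low level. As cells divide and enter G1, promoters are opened again, and genes with housekeeping, growth and cell identity roles resume transcription at different speeds. Nocodazole holds cells in mitosis by taking apart the microtubules of the spindle, and washing it out lets division proceed.

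The labels list 3 libraries for each time, but the table gives 1 pooled value per group, so no difference here has a replicate error and none could be tested. A gene was counted as higher or lower at 300 minutes where log2(FPKM + 1) was at least 1 above or below that at 0 minutes, which is 2-fold, and all folds are ratios of FPKM + 1. Low values repeat in steps, and 77 of 115 spliced transcripts at a single step lay within 5% of what the whole span of the transcript predicts, introns included, against 0 of 115 for the exon length. If a step is 1 fragment, which the files do not state, a gene of 10 kb at 10 FPKM held 40.8 fragments at 300 minutes and 24.6 at 0 minutes, with counting errors of 15.6% and 20.2%. The median compared gene came to 855 steps at 300 minutes and 391 at 0 minutes. The depth read from these steps was 1.66 times that at 0 minutes, and the summed FPKM was 9.06e+06 at 300 minutes and 6.24e+06 at 0 minutes. All 15 hepatoma markers examined had at least 10 FPKM at both times, at 25.6 to 1078 FPKM at 300 minutes and 37.8 to 882 at 0 minutes, 9 of them above and 6 below their 0 minute level, with a median difference of 0.11. Of 10 defining markers of blood, endothelial and stromal cells, 4 reached 10 FPKM at 300 minutes and 5 at 0 minutes, none above 24.6 FPKM at 300 minutes or 32.9 at 0 minutes, and the red cell gene HBB was listed at 0 at both. Some other members of the blood and stroma marker lists stood higher. LYZ was at 131.5 FPKM at 300 minutes and 73.7 at 0 minutes, and PDGFRA at 177 FPKM at 300 minutes and 56.3 at 0 minutes.

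At 300 minutes 4148 genes (22.8% of those compared) were at least 2-fold higher and 1463 (8.04%) at least 2-fold lower, while 12579 (69.2%) were neither. The median gene was 0.43 higher on the log2 scale, at 97.4 FPKM at 300 minutes and 65.6 at 0 minutes. Relative to that median, 1796 genes (9.87%) were at least 2-fold higher and 3239 (17.8%) at least 2-fold lower. Genes at least 2-fold higher made up 73.9% of the counted genes as deposited, 35.7% relative to the median, 49.6% after quantile normalization and 30.3% after division by the column sums. Under all 4 of these scalings, 1320 genes were at least 2-fold higher and 1117 at least 2-fold lower. FPKM are relative to other captured RNA, and with spike-in groups not analysed here the total amount of transcription was not measured. In a bulk culture, fewer cells making a transcript and less transcript per cell cannot be told apart.

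Larger differences were less one-sided: 610 genes were at least 4-fold higher and 267 at least 4-fold lower, and 209 were at least 8-fold higher and 118 at least 8-fold lower. The central 90% of log2 differences ran from -1.22 to 1.77. The 10 FPKM filter let in 605 genes through 300 minutes alone, 375 of them at least 2-fold higher, and 1619 through 0 minutes alone, 718 of them at least 2-fold lower. Just inside the limit lay TMEM202, at 5.90 FPKM at 300 minutes and 10.01 at 0 minutes, and PKHD1L1, at 7.41 and 10.01 FPKM at the same times. Just outside it lay ADAMTS17, at 8.57 FPKM at 300 minutes and 9.99 at 0 minutes, and FAM27C, listed at 0 at 300 minutes and at 9.996 FPKM at 0 minutes.

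**Figure D1:**
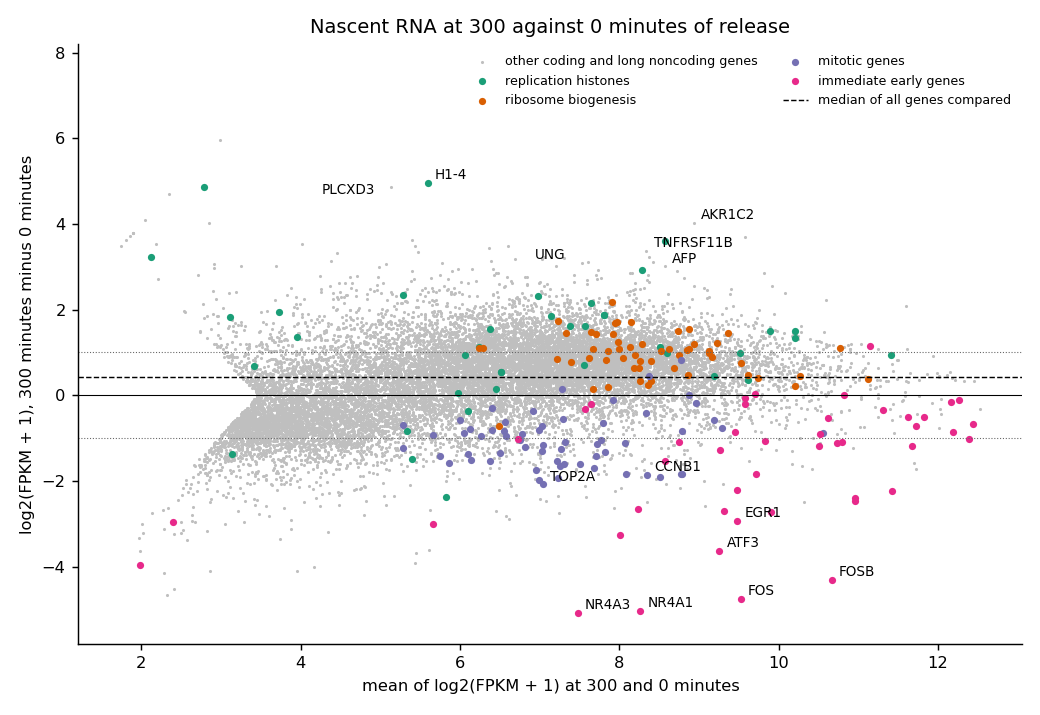
Each point is a protein-coding or long noncoding gene, with its mean log2(FPKM + 1) over 300 and 0 minutes across and the difference, 300 minutes minus 0 minutes, upward. Dotted lines mark 2-fold and the dashed line the all-gene median of 0.43. Immediate early genes reach -5.07 and replication histones 4.95, and mitotic genes lie mostly below 0.

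Protein-coding genes, 14455 in number, held 3186 higher and 986 lower members with a median of 0.45. Long noncoding RNAs were more evenly split, with 343 of 1899 higher, 256 lower and a median of 0.02. Small nucleolar RNAs, guides for the modification of ribosomal RNA, had 76 of 223 higher, 12 lower and a median of 0.76. Small nuclear RNAs, the RNA cores of the spliceosome, stood the other way, with 5 of 36 higher, 17 lower and a median of -0.80, from a median of 3.29 steps at 300 minutes and 5.42 at 0 minutes. MicroRNA genes, with 339 of 884 higher and 150 lower, likewise rested on a median of 4.01 steps at 300 minutes and 1.81 at 0 minutes. Counting error is large at so few steps. For example, MIR663A was listed at 0 at 300 minutes and stood at 1082 FPKM, or 24.8 steps, at 0 minutes, with a value of 0 at every other time. MIR548AK was at 348 FPKM, 8.09 steps, at 300 minutes and listed at 0 at 0 minutes.

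Immediate early genes, which respond to growth factors and stress within minutes and encode short-lived regulators, were the list farthest below at 300 minutes. Of 46 compared, 28 were at least 2-fold lower, 1 was higher and 17 were neither, against 8.04% lower and 22.8% higher among all compared genes. Their median difference was -1.11, or -1.54 relative to the all-gene median, and the 28 were lower under all 4 scalings. Of the 28, 2 passed the 10 FPKM filter through 0 minutes alone, and the 44 members that passed at both times had a median of -1.09. The summed level of the list was 5.48e+04 FPKM at 300 minutes and 1.15e+05 FPKM at 0 minutes.

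The NR4A genes, which encode orphan nuclear receptors, included the 2 members farthest below, NR4A3 and NR4A1. NR4A3 was at 29.7 FPKM at 300 minutes against 1032 at 0 minutes, 33.6-fold lower. NR4A1 was at 52.6 FPKM at 300 minutes against 1755 at 0 minutes, 32.8-fold lower. NR4A2, at 372 FPKM at 300 minutes against 2465 at 0 minutes, was 6.60-fold lower. All 3 thus ended the release far under their starting level, and the asynchronous culture held NR4A3 at 18.7 FPKM.

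Several genes of AP-1, a dimer of FOS, JUN and ATF type proteins, and of its relatives were lower as well. FOS was at 141 FPKM at 300 minutes against 3819 at 0 minutes, 26.9-fold lower, and FOSB at 364 FPKM at 300 minutes against 7246 at 0 minutes, 19.9-fold lower. ATF3, a stress-induced factor of the same structural class, was at 173 FPKM at 300 minutes against 2150 at 0 minutes, 12.4-fold lower. MAFF, a small MAF protein that pairs with such factors, was at 82.0 FPKM at 300 minutes against 797 at 0 minutes, 9.62-fold lower. JUN itself did not reach 2-fold, at 2642 FPKM at 300 minutes against 4315 at 0 minutes (-0.71), while its relatives JUNB (-2.22) and JUND (-2.70) did; these JUN genes were picked for naming after their values were seen. FOS at 300 minutes was also under the 993 FPKM of the asynchronous culture, whereas ATF3 was nearer to its 259.8 FPKM.

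The zinc finger factor genes EGR1 and EGR3 were 7.62-fold and 8.01-fold lower. EGR1 was at 257 FPKM at 300 minutes against 1968 at 0 minutes, and EGR3 at 16.9 FPKM at 300 minutes against 142 at 0 minutes. IER3, an early survival gene, was nearly level at 842 FPKM at 300 minutes and 819.5 at 0 minutes, slightly higher as deposited (0.04) and lower under the 3 other scalings (-0.39 to -0.51). MYC, the growth regulator, was the list's single gene at least 2-fold higher, at 3375 FPKM at 300 minutes against 1523 at 0 minutes, a difference of 1.15 that was under 2-fold relative to the all-gene median. Its highest value of the release was 4341 FPKM at 165 minutes.

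Few of these genes were highest at 0 minutes. Within the release 20 of the 46 were highest at 40 minutes, 18 at 105, 5 at 80, 2 at 0 and 1 at 165 minutes, and 0 were highest at 300 minutes. FOSB reached 9849 FPKM at 40 minutes and NR4A1 2799. The median level of the list was 1849 FPKM at 0 minutes, 2454 at 40, 2185 at 80, 2148 at 105, 1371 at 165 and 669 at 300 minutes, with 915 in the asynchronous culture. The list's median was thus above its 0 minute level until 105 minutes and under it from 165 minutes on.

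The promoter of EGR1 is shown as an example of the list because it holds a pair of CArG boxes, the element bound by serum response factor, which links growth factor signals to immediate early genes. The stretch is the 120 bases before the start of the gene, chr5:138465359-138465478 on the plus strand, from RefSeq (GRCh38.p14), with capitals marking only the CArG boxes.
EGR1: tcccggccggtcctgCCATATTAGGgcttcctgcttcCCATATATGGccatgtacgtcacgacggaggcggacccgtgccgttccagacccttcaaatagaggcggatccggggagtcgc
Within 250 bases before the start, a CArG box on either strand was found in 5.71% of the 35 immediate early genes with a promoter in the RefSeq table, EGR1 and SRF, and in 1.01% of the 13124 compared genes with one. A TATA box (TATAAA) stood in 25.7% of the 35 and 6.76% of all, and a cyclic AMP response element (TGACGTCA) in 11.4% of the 35 and 2.59% of all. These matches describe letters, not binding.

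**Figure D2:**
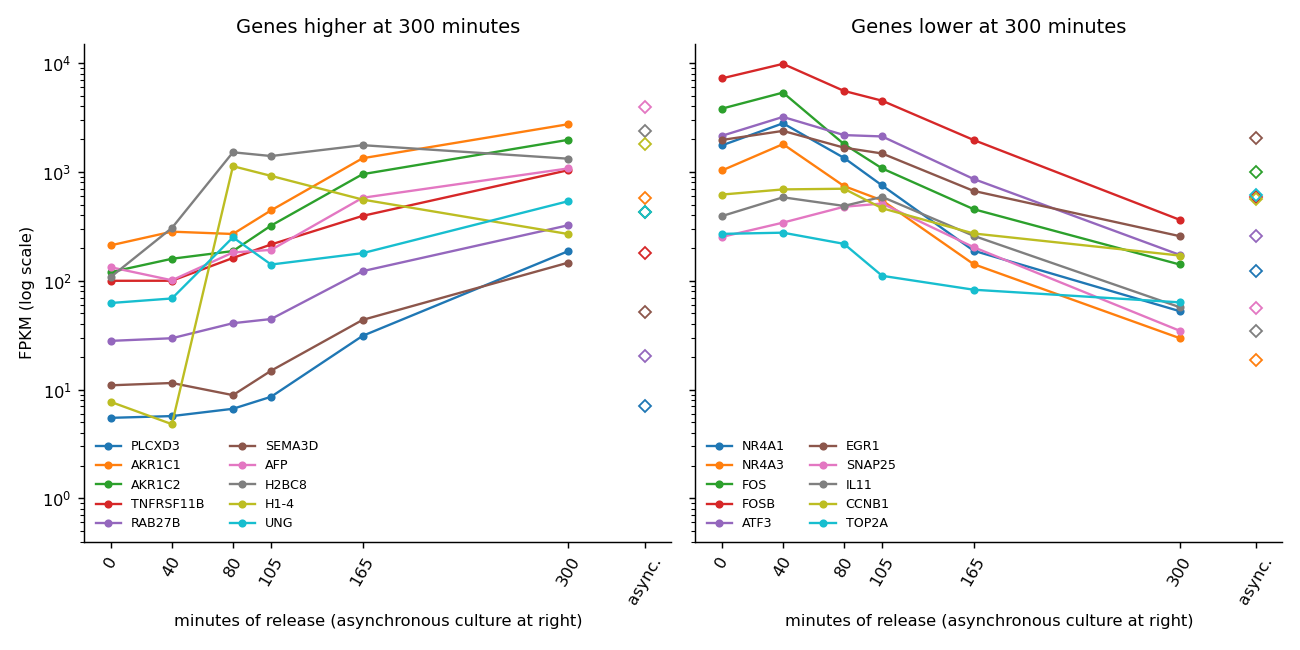
FPKM on a log axis by minutes of release for 10 genes higher and 10 genes lower at 300 minutes, with the asynchronous culture as open diamonds at the right. Each point is the authors' single pooled value. FOS, FOSB, NR4A1, NR4A3 and ATF3 are highest at 40 minutes, H1-4 is highest at 80 minutes within the release, and PLCXD3 passes from 31.1 FPKM at 165 minutes to 187.5 FPKM at 300 minutes.

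Other genes far lower at 300 minutes came from several classes. IL11, a cytokine gene, was at 57.2 FPKM at 300 minutes against 393 at 0 minutes, 6.77-fold lower. SNAP25, a membrane fusion protein of secretory vesicles, was at 34.8 FPKM at 300 minutes against 253 at 0 minutes, 7.10-fold lower, after a highest value of 512 FPKM at 105 minutes. CKB, a creatine kinase of cellular energy supply, was at 35.1 FPKM at 300 minutes against 266 at 0 minutes, 7.39-fold lower. TMEM95, GARIN4 and LINC01220 were 15.04-fold, 12.9-fold and 12.2-fold lower from 8.59, 10.5 and 10.7 steps at 300 minutes. For those 3 short genes the fold is imprecise, although 85.0, 87.9 and 84.1 steps stood behind their values at 0 minutes. Without a floor of 5 FPKM at 300 minutes the ranking also held KRT17, HCAR2, STH and KRTAP23-1, each at 0 to 2.29 steps at 300 minutes.

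Mitotic genes, which build the spindle, sort chromosomes and drive the exit from division, were lower at 300 minutes almost throughout. Of 60 genes, 32 (53.3%) were at least 2-fold lower and 0 at least 2-fold higher, against 8.04% and 22.8% of all compared genes. A negative difference was seen in 56 of the 60. The median was -1.07, or -1.50 relative to all genes, and the 32 held under all 4 scalings. Relative to the all-gene median 50 of the 60 were at least 2-fold lower. The list's summed level was 9529 FPKM at 300 minutes and 1.84e+04 FPKM at 0 minutes.

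TOP2A, the topoisomerase that untangles sister chromatids, was at 63.3 FPKM at 300 minutes against 269.6 at 0 minutes, 4.21-fold lower. UBE2C, the ubiquitin donor of the anaphase-promoting complex, was at 62.9 FPKM at 300 minutes against 252 at 0 minutes, 3.96-fold lower. CDC20, an activator of that complex, was at 188 FPKM at 300 minutes against 702 at 0 minutes, 3.73-fold lower. The 3 genes thus differed by a like factor, and all 3 were lower under every scaling.

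KIF18A, a kinesin that aligns chromosomes, was at 76.0 FPKM at 300 minutes against 291 at 0 minutes, 3.80-fold lower. CCNB1, which encodes cyclin B1, the partner of the mitotic kinase, was at 171 FPKM at 300 minutes against 619.7 at 0 minutes, 3.62-fold lower. The spindle checkpoint genes BUB3 and MAD2L1 stood apart. BUB3 was at 581.5 FPKM at 300 minutes against 330.2 at 0 minutes (0.81), and MAD2L1 at 387 FPKM at 300 minutes against 282 at 0 minutes (0.46 as deposited, 0.03 relative to the median, and -0.24 and -0.05 after quantile normalization and division by column sums). The list's median level was 234 FPKM at 0 minutes, 243 at 40, 225 at 80, 144 at 105, 100.8 at 165 and 92.1 at 300 minutes, and 349 in the asynchronous culture.

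Promoters of 3 of these genes are shown because CCAAT boxes (CCAAT, bound by NF-Y) and cell cycle homology regions (CHR, TTTGAA) are the elements known to time mitotic gene transcription. Each is the 120 bases before the start from RefSeq (GRCh38.p14), with capitals marking only the CCAAT boxes, on either strand, and the CHR of CDC20. They lie at chr5:69167030-69167149 on the plus strand (CCNB1), chr1:43358861-43358980 on the plus strand (CDC20) and chr17:40417897-40418016 on the minus strand (TOP2A).
CCNB1: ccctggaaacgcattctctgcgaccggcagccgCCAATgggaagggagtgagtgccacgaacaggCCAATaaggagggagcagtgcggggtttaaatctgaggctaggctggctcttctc
CDC20: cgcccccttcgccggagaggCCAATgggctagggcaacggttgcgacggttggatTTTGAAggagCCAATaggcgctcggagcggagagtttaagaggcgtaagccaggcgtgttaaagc
TOP2A: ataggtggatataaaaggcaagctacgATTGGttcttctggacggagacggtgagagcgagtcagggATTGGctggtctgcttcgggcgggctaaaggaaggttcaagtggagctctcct
Over 250 bases before the start, a CCAAT box on either strand was found in 76.5% of the 51 mitotic genes with a promoter in the table and in 34.9% of all 13124. A CHR was found in 51.0% of the 51 and in 9.59% of all. By comparison, CCAAT was found in 34.1% and CHR in 11.4% of the 901 genes at least 2-fold lower that had a promoter.

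Replication histone genes, transcribed in S phase to package new DNA, stood mostly above their 0 minute level at 300 minutes. Of 62 listed, 39 reached 10 FPKM, 22 of them (56.4%) higher by 2-fold or more and 3 (7.69%) lower. Among all compared genes 22.8% were higher and 8.04% lower. The list's median was 1.34, or 0.91 relative to all genes. However, 7 passed the filter through 300 minutes alone, 6 of the 22 among them, and 1 through 0 minutes alone. Of the 31 that passed at both times, 16 were higher by 2-fold or more and 2 lower, with a median of 1.12. Under all 4 scalings 14 of the 39 were higher. H1-4, a linker histone gene, was at 268.5 FPKM at 300 minutes against 7.69 at 0 minutes, where 1.49 steps stood behind it. H2BC8, a core histone gene, was at 1323 FPKM at 300 minutes against 109 at 0 minutes, 12.1-fold higher, from 13.1 steps at 0 minutes.

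The histone list was split within itself. H2BC7 was at 36.2 FPKM at 300 minutes and 0.273 at 0 minutes, and H2AC21 at 12.3 FPKM at 300 minutes and 0.422 at 0 minutes, values of under 8 steps each. H4C1 was lower, at 24.0 FPKM at 300 minutes against 128 at 0 minutes, and so was H4C3, at 24.2 FPKM at 300 minutes against 69.997 at 0 minutes, again on few steps. Histone copies share sequence, so how reads were divided among them is uncertain. At 300 minutes the list was past its peak: 17 of the 39 were highest at 80 minutes, 14 at 105, 7 at 165 and 1 at 300 minutes. The median level was 76.5 FPKM at 0 minutes, 104 at 40, 564 at 80, 484 at 105, 305 at 165 and 239.98 at 300 minutes, against 869 in the asynchronous culture.

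H1-4 and H2BC8 promoters are printed for the pair of elements that many histone genes share, a CCAAT box and a TATA box, marked in capitals. They lie at chr6:26156209-26156328 on the plus strand (H1-4) and chr6:26216689-26216808 on the minus strand (H2BC8), the 120 bases before the start in RefSeq (GRCh38.p14).
H1-4: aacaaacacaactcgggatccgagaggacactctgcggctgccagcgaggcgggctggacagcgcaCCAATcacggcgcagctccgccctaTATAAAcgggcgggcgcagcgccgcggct
H2BC8: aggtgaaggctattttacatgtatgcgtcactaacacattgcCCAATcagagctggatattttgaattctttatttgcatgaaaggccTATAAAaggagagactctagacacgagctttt
A TATA box stood within 250 bases in 63.9% of the 36 histone genes with a promoter in the table and in 6.76% of all, and a CCAAT box in 77.8% of the 36. The mitotic and the histone list, one lower and one higher at 300 minutes, thus had like shares of CCAAT boxes.

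Genes of the G1/S transition, which prepare and start DNA replication, had 11 of 61 higher by 2-fold or more, and 1 was lower. The higher share of the list, 18.03%, was under the 22.8% of all compared genes, and its median of 0.58 was 0.15 above that of all genes but -0.01 relative to it after quantile normalization. UNG, which removes uracil from DNA, was at 539 FPKM at 300 minutes against 62.4 at 0 minutes, 8.51-fold higher. MCM5 was at 177 FPKM at 300 minutes against 39.1 at 0 minutes, 4.44-fold higher, and MCM3 at 968 FPKM at 300 minutes against 314.5 at 0 minutes, 3.07-fold higher; both encode subunits of the replicative helicase. GINS2, a partner of that helicase, was at 52.3 FPKM at 300 minutes against 18.1 at 0 minutes. It was 2.79-fold higher as deposited and under 2-fold only after division by column sums. UNG, MCM5 and MCM3 were higher under all 4 scalings.

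The list's single member at least 2-fold lower was CCNA2. This gene, which encodes cyclin A2 of S phase and G2, was at 113 FPKM at 300 minutes against 370.0 at 0 minutes, 3.26-fold lower. RRM2, the small subunit of ribonucleotide reductase, was at 120.5 FPKM at 300 minutes against 231 at 0 minutes, a difference of -0.93 that did not reach 2-fold. Within the release 28 of the 61 genes were highest at 300 minutes and 24 at 80 minutes. An E2F site (TTTCCCGC) was found in 19.6% of the 51 list members with a promoter in the table and in 2.00% of all 13124.

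Among 23 early G1 regulators 6 were at least 2-fold higher and 3 lower, around a median of -0.04. TXNIP, a regulator of glucose uptake and redox state, was at 2422 FPKM at 300 minutes against 334 at 0 minutes, 7.24-fold higher, and far above the 60.2 FPKM of the asynchronous culture. MYCN, a MYC relative, was at 828 FPKM at 300 minutes against 132 at 0 minutes, 6.25-fold higher. CDK4, the kinase that works with D cyclins in G1, was at 1523 FPKM at 300 minutes against 653 at 0 minutes. It was 2.33-fold higher as deposited and under 2-fold in the 3 other scalings. The inhibitor gene CDKN1C was at 31.6 FPKM at 300 minutes against 9.08 at 0 minutes, from 5.72 steps at 0 minutes. CDKN1C passed the 10 FPKM filter through 300 minutes alone, and was the only inhibitor of cyclin-dependent kinases among the 6 higher members.

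CDKN2C, an inhibitor of CDK4 and CDK6, was at 26.9 FPKM at 300 minutes against 79.7 at 0 minutes, 2.89-fold lower, after 634 FPKM at 80 minutes. CDKN1A, which encodes p21, was at 122 FPKM at 300 minutes against 333 at 0 minutes, 2.71-fold lower, and both it and CDKN2C were lower under all 4 scalings. CCND1, the cyclin D1 gene, was at 662 FPKM at 300 minutes against 986 at 0 minutes, a difference of -0.57 that did not reach 2-fold as deposited. For CDKN2C the 2 ends of the release hide a peak far above both.

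Of 27 p53 targets, 6 (22.2%) were higher by 2-fold or more and 4 (14.8%) lower, against 22.8% and 8.04% of all compared genes. The list's median was 0.30 as deposited and -0.13 relative to all genes. The nuclease gene AEN was at 533 FPKM at 300 minutes against 193.5 at 0 minutes, XPC, a sensor of DNA damage, at 495 FPKM at 300 minutes against 186 at 0 minutes, and the DNA polymerase gene POLK at 145 FPKM at 300 minutes against 64.9 at 0 minutes. All 6 higher members were under 2-fold in at least 1 other scaling. BBC3, a trigger of cell death, was at 78.1 FPKM at 300 minutes against 199.6 at 0 minutes, 2.54-fold lower, and the 4 lower members held under all 4 scalings.

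Ribosome biogenesis genes, which make and process ribosomal RNA and assemble the subunits, had 28 of 55 at least 2-fold higher and 0 lower, against 22.8% and 8.04% of all genes. The median was 1.02, or 0.59 relative to all genes, and 54 of 55 had a positive difference. POLR1B, a core subunit of RNA polymerase I, was at 510.2 FPKM at 300 minutes against 113 at 0 minutes, 4.49-fold higher. RRP9, a protein of the U3 particle that starts ribosomal RNA processing, was at 273 FPKM at 300 minutes against 81.4 at 0 minutes, 3.33-fold higher. HEATR1, a nucleolar processing factor, was at 453 FPKM at 300 minutes against 139 at 0 minutes, and GNL3L, a nucleolar GTPase, at 512 FPKM at 300 minutes against 154.5 at 0 minutes. Those 4 genes were the list's members higher under all 4 scalings. UBTF, which recruits RNA polymerase I to its promoter, stood alone below, at 69.3 FPKM at 300 minutes against 115 at 0 minutes (-0.72).

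Ribosomal protein genes lay close to the bulk of genes. Where all compared genes had 22.8% higher and 8.04% lower, 12 of these 79 (15.2%) were higher by 2-fold or more and 0 lower. Their median of 0.56 was 0.13 above that of all genes and 0.03 below it after quantile normalization. RPL36 was at 755 FPKM at 300 minutes against 245 at 0 minutes, 3.07-fold higher, and RPS4X at 767.5 FPKM at 300 minutes against 283 at 0 minutes, 2.71-fold higher. RPLP2 was at 271 FPKM at 300 minutes against 433.5 at 0 minutes (-0.68). No member held a 2-fold difference under all 4 scalings, and 53 of the 79 were highest at 80 minutes. Many ribosomal protein genes have processed copies elsewhere in the genome, which makes the share of reads given to each uncertain.

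Of all compared genes 22.8% were higher and 8.04% lower. Nuclear genes of oxidative phosphorylation had 7 of 62 (11.3%) higher and 1 lower, and splicing factors 7 of 55 (12.7%) higher and 0 lower. Proteasome subunits had 0 of 33 either way. In that order the medians were 0.57, 0.56 and 0.32, which is 0.14, 0.13 and -0.11 relative to all genes. The first of these relative medians turned to -0.09 after quantile normalization. PRPF19, a ubiquitin ligase of the spliceosome, was at 1178 FPKM at 300 minutes against 368 at 0 minutes, 3.19-fold higher and the only splicing factor past 2-fold under all 4 scalings. COX8A, a subunit of cytochrome c oxidase, was at 17.6 FPKM at 300 minutes against 60.3 at 0 minutes, 3.30-fold lower, from 13.8 steps at 300 minutes and 28.6 at 0 minutes. PSMD1, a subunit of the proteasome cap, was at 599 FPKM at 300 minutes against 314 at 0 minutes (0.93), the largest difference among the proteasome genes in either direction.

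**Figure D3:**
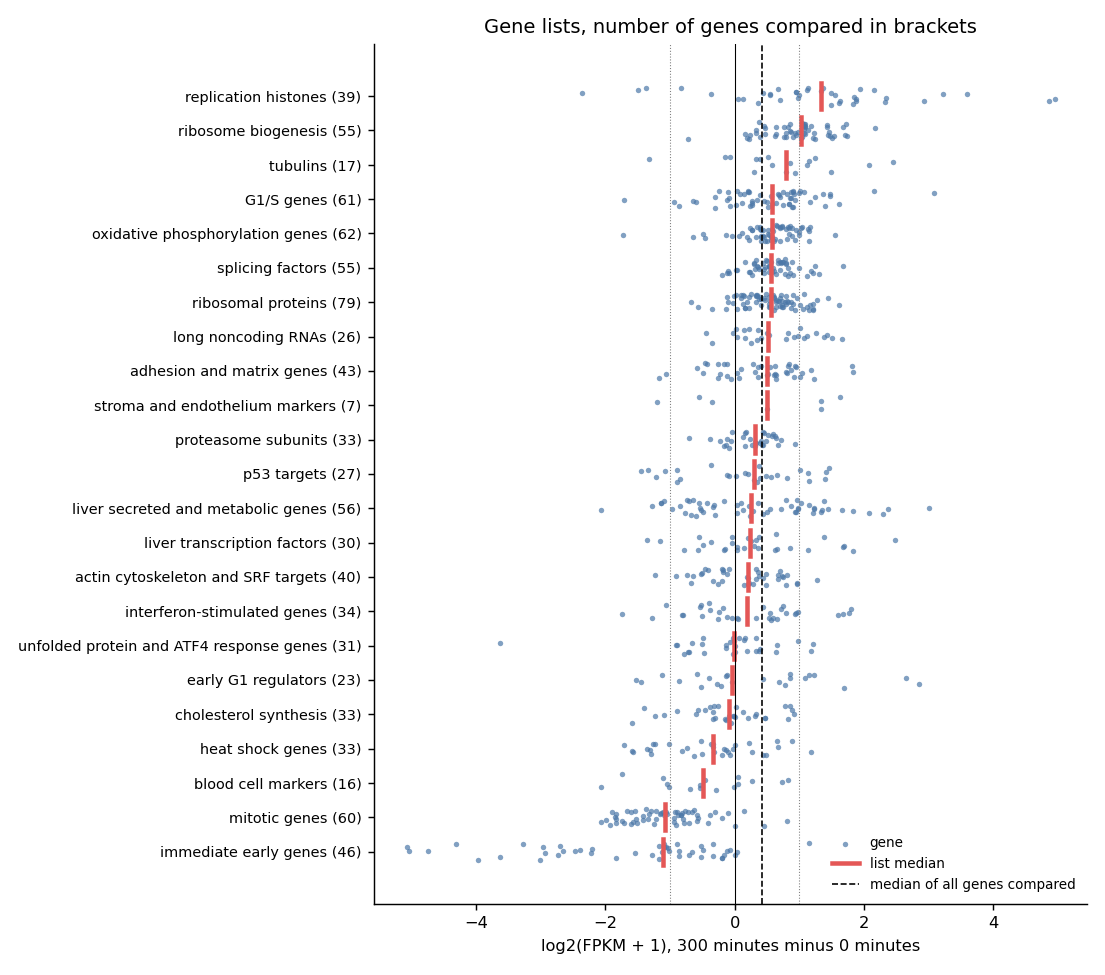
Each point is a gene of one of 23 lists at its difference in log2(FPKM + 1), 300 minutes minus 0 minutes, and red bars are list medians. The dashed line is the median of all compared genes and dotted lines mark 2-fold. Replication histones (1.34, or 1.12 over members past the 10 FPKM filter at both times) and ribosome biogenesis genes (1.02) have the highest medians, and immediate early genes (-1.11) and mitotic genes (-1.07) the lowest.

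Heat shock genes, whose products fold and protect proteins, counted 1 of 33 (3.03%) as higher by 2-fold or more and 9 (27.3%) as lower. Among all compared genes 22.8% were higher and 8.04% lower. The list's median was -0.34 or -0.77 relative to all genes. HSPA1A was at 1868 FPKM at 300 minutes against 6146 at 0 minutes, 3.29-fold lower, and HSPA1B at 1918 FPKM at 300 minutes against 5777 at 0 minutes, 3.01-fold lower. These copies are near-identical and cannot be told apart by their reads. DNAJA4, a co-chaperone, was at 30.1 FPKM at 300 minutes against 78.3 at 0 minutes, 2.55-fold lower, and HSPA6 at 14.5 FPKM at 300 minutes against 45.3 at 0 minutes, from 13.99 steps at 300 minutes. All 9 lower members held under all 4 scalings. DNAJB9, a co-chaperone of the endoplasmic reticulum that is also in the unfolded protein list, was the higher one. It was at 1352 FPKM at 300 minutes against 594.5 at 0 minutes, and under 2-fold in the 3 other scalings.

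Genes of the unfolded protein and ATF4 response were mostly level, with 2 of 31 (6.45%) higher, 1 (3.23%) lower and a median of -0.02. All compared genes had 22.8% higher and 8.04% lower. The list's lower member is ATF3, given above. PSAT1, an enzyme of serine synthesis, was at 311 FPKM at 300 minutes against 134 at 0 minutes, 2.32-fold higher as deposited. TRIB3, an ATF4-induced pseudokinase, was at 114 FPKM at 300 minutes against 214 at 0 minutes (-0.90).

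Liver genes lay in both directions, at shares near those of all compared genes. Of 70 secreted and metabolic genes listed, 56 were compared. Of these, 15 (26.8%) were higher by 2-fold or more and 5 (8.93%) lower, against 22.8% and 8.04% of all compared genes. The list's median was 0.26 as deposited and -0.17 relative to all genes. The 10 FPKM filter let in 2 of the 15 through 300 minutes alone and 2 of the 5 through 0 minutes alone. Of the 50 that passed at both times, 13 were higher and 3 lower, with a median of 0.32. AFP, which encodes alpha-fetoprotein, a serum protein of the fetus, was at 1078 FPKM at 300 minutes against 133 at 0 minutes, 8.06-fold higher. ALB, which encodes serum albumin and neighbours AFP on chromosome 4, was at 662 FPKM at 300 minutes against 127.5 at 0 minutes, 5.16-fold higher. Both remained under the asynchronous culture, where AFP was at 3964 FPKM and ALB at 2295.

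The coagulation factor gene F5 was at 285 FPKM at 300 minutes against 57.2 at 0 minutes, 4.91-fold higher, and above the 135 FPKM of the asynchronous culture. TF, which encodes the iron carrier transferrin, was at 156 FPKM at 300 minutes against 36.2 at 0 minutes, 4.21-fold higher, and at 861 FPKM in that culture. On the lower side, HAMP, the iron hormone hepcidin, was at 5.61 FPKM at 300 minutes against 26.6 at 0 minutes, on 5.99 steps at 300 minutes. F12, another coagulation factor, was at 6.43 FPKM at 300 minutes against 16.9 at 0 minutes, and was under 2-fold only after quantile normalization. Both HAMP and F12 passed the filter through 0 minutes alone. Of the 56 genes, 21 were highest at 300 minutes, 13 at 40 and 13 at 0 minutes.

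Liver transcription factors had 6 of 30 (20%) higher and 2 (6.67%) lower, against 22.8% and 8.04% of all compared genes. Of the 2 lower, 1 passed the 10 FPKM filter through 0 minutes alone. The list's median was 0.23 or -0.20 relative to all genes. CEBPA, a leucine zipper factor of hepatocytes, was at 79.2 FPKM at 300 minutes against 21.5 at 0 minutes, 3.57-fold higher, but at 1702 FPKM in the asynchronous culture. NR1I2, the xenobiotic receptor PXR, was at 64.7 FPKM at 300 minutes against 19.3 at 0 minutes, 3.25-fold higher. CEBPA and NR1I2 were higher under all 4 scalings. CREB3L3, at 596 FPKM at 300 minutes against 185 at 0 minutes, was under 2-fold only after quantile normalization. TBX3, a developmental repressor, was at 174.7 FPKM at 300 minutes against 450.3 at 0 minutes, 2.57-fold lower, after 1613 FPKM at 105 minutes.

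Cholesterol synthesis genes had 0 of 33 higher and 4 (12.1%) lower, all 4 of them under every scaling. Among all compared genes 22.8% were higher and 8.04% lower. The list's median was -0.09 or -0.52 relative to all genes. INSIG1, the sterol-sensing brake of the pathway and itself a target of SREBP, was at 259.7 FPKM at 300 minutes against 785 at 0 minutes, 3.02-fold lower. MVD and IDI1, enzymes of the mevalonate route, were at 134 and 1272 FPKM at 300 minutes against 357 and 2988 FPKM at 0 minutes. INSIG2, the paralog that SREBP does not drive, was on the other side at 201 FPKM at 300 minutes against 106 at 0 minutes (0.92). The list was highest at 80 minutes for 19 of its 33 genes.

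Tubulin genes had 6 of 17 (35.3%) higher and 1 (5.88%) lower, against 22.8% and 8.04% of all compared genes. The list's median was 0.79 or 0.36 relative to all genes. TUBA1A was at 71.4 FPKM at 300 minutes against 12.3 at 0 minutes, 5.46-fold higher from 12.9 steps at 0 minutes. TUBB was at 484 FPKM at 300 minutes against 114 at 0 minutes, 4.23-fold higher, and these 2 genes were the members higher under all 4 scalings. TUBA4A was at 24.0 FPKM at 300 minutes against 61.5 at 0 minutes, 2.503-fold lower. Tubulin genes resemble each other, and the split of reads among them is uncertain.

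Actin cytoskeleton genes and targets of serum response factor were largely level. Of 40, 1 (2.5%) was higher and 1 (2.5%) lower, against 22.8% and 8.04% of all compared genes. The list's median was 0.21 or -0.22 relative to all genes. ACTG1, cytoplasmic gamma actin, was at 254 FPKM at 300 minutes against 594.5 at 0 minutes, 2.34-fold lower as deposited and past 2-fold under every scaling. ACTB, its beta counterpart, was at 189 FPKM at 300 minutes against 254 at 0 minutes (-0.42).

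Adhesion and matrix genes, of interest because the cells were replated, had 6 of 43 (13.95%) higher and 2 (4.65%) lower. Among all compared genes 22.8% were higher and 8.04% lower. The list's median was 0.50, or 0.07 relative to all genes. The integrin genes ITGA2 and ITGB6 were 3.51-fold and 3.54-fold higher as deposited and stayed past 2-fold under all 4 scalings. ITGA2, a collagen receptor subunit, was at 624 FPKM at 300 minutes against 177 at 0 minutes and 128 in the asynchronous culture. ITGB6 was at 45.1 FPKM at 300 minutes against 12.01 at 0 minutes. FN1, which encodes fibronectin, was at 2469 FPKM at 300 minutes against 1089 at 0 minutes, 2.27-fold higher as deposited. CCN2, a matrix protein gene, was at 628 FPKM at 300 minutes against 1307 at 0 minutes, 2.08-fold lower, after 3538 FPKM at 80 minutes.

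Among 26 listed long noncoding RNAs 8 (30.8%) were higher and 0 lower, against 22.8% and 8.04% of all compared genes. The list's median was 0.51. SNHG15, a host of small nucleolar RNA, was at 1699 FPKM at 300 minutes against 595 at 0 minutes, 2.85-fold higher. FTX, an X-linked noncoding gene, was at 188 FPKM at 300 minutes against 58.7 at 0 minutes, 3.16-fold higher, and alone held 2-fold under all 4 scalings. MALAT1, an abundant RNA of nuclear speckles, was at 3604 FPKM at 300 minutes against 4917 at 0 minutes (-0.45).

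Interferon-stimulated genes had 4 of 34 (11.8%) higher and 3 (8.82%) lower, each under all 4 scalings. Among all compared genes 22.8% were higher and 8.04% lower. The filter let in 1 of the 4 through 300 minutes alone and 1 of the 3, PSMB8, through 0 minutes alone. The list's median was 0.19, which is -0.24 relative to all genes and 0.13 after quantile normalization. MX2 and IFIT5, antiviral effectors, were at 434 and 120.2 FPKM at 300 minutes against 126 and 34.0 FPKM at 0 minutes. ISG15, a ubiquitin-like modifier, was at 287 FPKM at 300 minutes against 698 at 0 minutes, 2.43-fold lower. PSMB8, an immunoproteasome subunit, was at 3.37 FPKM at 300 minutes against 13.6 at 0 minutes, from 5.45 steps at 300 minutes.

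Of 24 blood cell markers 16 were compared, with 0 higher and 5 (31.25%) lower, against 22.8% and 8.04% of all compared genes. The list's median was -0.50 (-0.93 relative to all genes), with 11 negative differences. Of the 16, 7 passed the 10 FPKM filter through 0 minutes alone, 3 of the 5 lower ones among them, and the 9 that passed at both times had a median of 0.05. The sum over the 16 compared was 702 FPKM at 300 minutes and 705 at 0 minutes. CD68, a lysosomal protein that many cells make, held 383 FPKM of it at 300 minutes and 368 at 0 minutes, and was picked for naming after its values were seen, as was LUM below. The part of such cells in other results was not tested. Of 21 stroma and endothelium markers 7 were compared, 3 of them higher and 1 lower. The filter let in 1 of the 3 through 300 minutes alone, and the lower one through 0 minutes alone. The sum over the 7 compared was 523 FPKM at 300 minutes and 451 at 0 minutes. LUM, which encodes lumican, held 251 FPKM of it at 300 minutes and 321 at 0 minutes.

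Of the 15 leading higher genes with at least 100 FPKM at 300 minutes and 5 at 0 minutes, most lay outside the lists. PLCXD3, a phospholipase C domain gene of 204 kb, was at 187.5 FPKM at 300 minutes against 5.49 at 0 minutes, 29.03-fold higher, with 7.09 FPKM in the asynchronous culture. AKR1C2 and AKR1C1, aldo-keto reductases of steroid and xenobiotic metabolism, were at 1975 and 2748 FPKM at 300 minutes against 120.1 and 212 FPKM at 0 minutes, 16.3-fold and 12.9-fold higher. These AKR1C copies are closely alike, and their reads may have been shared. TNFRSF11B, the decoy receptor osteoprotegerin, was at 1039 FPKM at 300 minutes against 99.9 at 0 minutes, 10.3-fold higher, and at 181 FPKM in the asynchronous culture.

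RAB27B, a GTPase of vesicle secretion, was at 324 FPKM at 300 minutes against 28.0 at 0 minutes, 11.2-fold higher, with 20.4 FPKM in the asynchronous culture. SEMA3D, a secreted guidance protein, was at 147 FPKM at 300 minutes against 10.9 at 0 minutes, 12.4-fold higher. SPTLC3, a subunit of serine palmitoyltransferase, was at 145 FPKM at 300 minutes against 11.9 at 0 minutes, 11.3-fold higher. These 3 genes span 178, 255 and 160.1 kb. All of the 15 leading higher genes except H1-4 and H2BC8 were above the asynchronous culture at 300 minutes, not only above 0 minutes.

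SMLR1 was at 1009 FPKM at 300 minutes against 107 at 0 minutes, 9.36-fold higher, and the noncoding gene MROCKI at 480.3 FPKM at 300 minutes against 51.0 at 0 minutes, 9.25-fold higher. The receptor genes TAS2R5, for bitter taste, and VN1R1, of the vomeronasal type, were at 403 and 140.5 FPKM at 300 minutes against 42.4 and 12.9 FPKM at 0 minutes, on 12.02 and 7.47 steps at 0 minutes. The gamma protocadherins PCDHGB6 and PCDHGA9 were at 271 and 310.1 FPKM at 300 minutes against 24.1 and 33.2 FPKM at 0 minutes. All 15 were higher under all 4 scalings. A ranking without the floor at 0 minutes added KRTAP22-1, LINC01723, ERLNC1 and PPIAL4D, each at 0 to 0.2 steps at 0 minutes.

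The intermediate times place these differences within the release. For each gene the midpoint on the log scale between its values at 0 and 300 minutes was taken, and the first time past it was noted. Of the 4148 higher genes, 361 (8.70%) were past it at 40 minutes, 1848 (44.6%) at 80, 713 (17.2%) at 105, 834 (20.1%) at 165 and 392 (9.45%) at 300 minutes. The lower genes were spread more evenly, with 237, 203, 296, 367 and 360 of 1463 at those times. The midpoint rests on the end values, so it describes the path between them and is no separate support for the difference.

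Among coding and long noncoding genes, larger and smaller differences had different timings as deposited. A smaller difference has its midpoint nearer the 0 minute level. The median compared gene was at 65.6 FPKM at 0 minutes and 100.2 at 80 minutes. The part of this shared rise in the timings was not tested, and no midpoint was taken relative to that median. Of 3170 genes 2 to 4-fold higher, 49.6% passed the midpoint at 80 minutes and 19.7% at 165 minutes. Of 359 genes 4-fold or more higher, 23.7% passed it at 80 minutes and 40.7% at 165 minutes. Of 1095 genes 2 to 4-fold lower, 11.5% passed it at 40 minutes, 26.3% at 165 and 25.02% at 300 minutes. Of 147 genes 4-fold or more lower, 16.3% passed it at 40 minutes, 34.0% at 165 and 29.9% at 300 minutes, so that the larger differences had the greater share at both ends. For example, AKR1C1 was at 443.6 FPKM at 105 minutes and 1336 at 165, where it first passed its midpoint.

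Most higher genes were still at their top when the series ended. The value at 300 minutes was the highest of the release for 2607 (62.8%) of them, that at 165 minutes for 807 and that at 80 minutes for 431. Their median level was 75.7 FPKM at 0 minutes, 85.4 at 40, 131 at 80, 148 at 105, 173 at 165 and 207 at 300 minutes, against 157 in the asynchronous culture. The lower genes were highest at 0 minutes in 685 cases (46.8%), at 40 minutes in 332, at 80 in 304 and at 105 in 132. Their median level was 32.5 FPKM at 0 minutes, 26.7 at 40, 24.8 at 80, 19.98 at 105, 13.4 at 165 and 10.3 at 300 minutes, close to the 10.8 of the asynchronous culture. Both groups were picked by their values at 0 and 300 minutes, which favours extremes at those times and shapes these medians. Of the 12579 genes in neither group, 1939 (15.4%) were highest at 300 minutes and 1248 (9.92%) at 0 minutes.

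**Figure D4:**
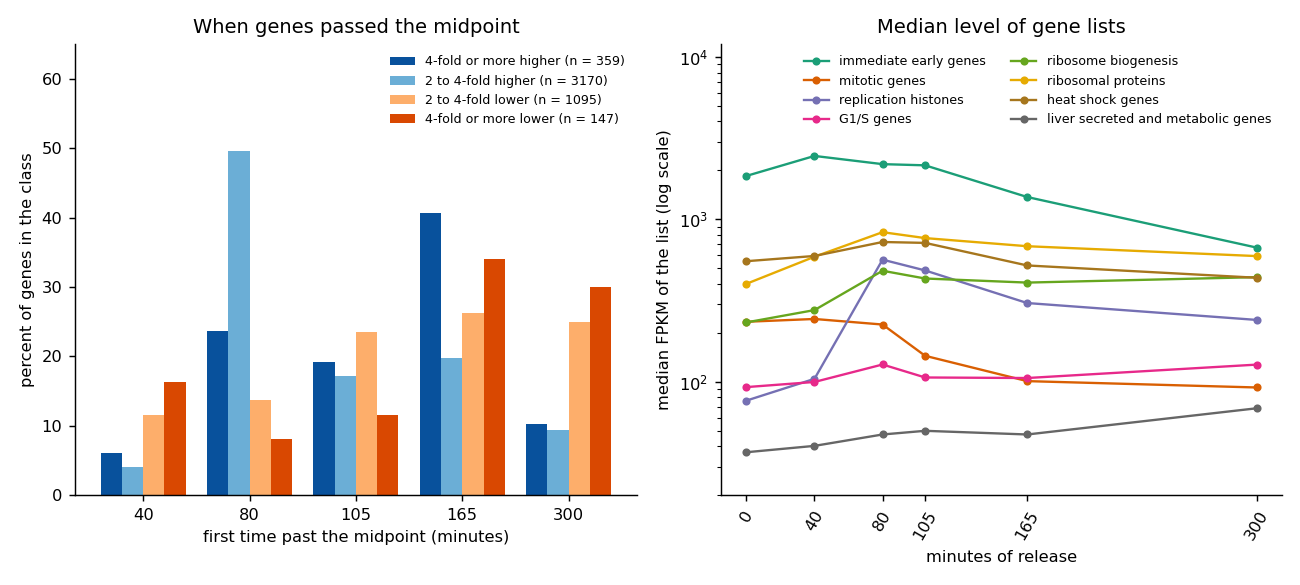
Left, the percent of coding and long noncoding genes first past the midpoint between 0 and 300 minutes at each time, by size of difference; right, the median FPKM of 8 lists by minutes of release on a log axis. The most frequent time is 80 minutes for genes 2 to 4-fold higher (49.6%) and 165 minutes for genes 4-fold or more higher (40.7%). The histone median peaks at 80 minutes (564 FPKM), and the immediate early median ends at 669 FPKM.

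Gene span separated the lower genes more than the higher ones. Among protein-coding genes under 5 kb, 15.3% were at least 2-fold lower at 300 minutes, against 9.57% at 5 to 20 kb, 6.005% at 20 to 50 kb, 3.503% at 50 to 100 kb, 1.90% at 100 to 200 kb and 1.36% at 200 kb or more. The share at least 2-fold higher ran from 20.3% to 25.6% over the same classes. The median difference was 0.28 under 5 kb and 0.54 at 200 kb or more. Restricted to genes of 50 to 200 FPKM in the asynchronous culture, the lower share was 6.60% under 5 kb and 0.495% at 200 kb or more.

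Levels followed different courses by span. Genes under 5 kb had a median of 76.2 FPKM at 0 minutes, 97.3 at 40, 157 at 80, 151 at 105, 106 at 165 and 101.1 at 300 minutes. Genes of 200 kb or more had 34.8 FPKM at 0 minutes, 36.3 at 40, 35.5 at 80, 41.4 at 105, 52.6 at 165 and 56.3 at 300 minutes, against 78.5 in the asynchronous culture. The shortest class thus stood at its highest median at 80 minutes and the longest at 300 minutes.

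**Figure D5:**
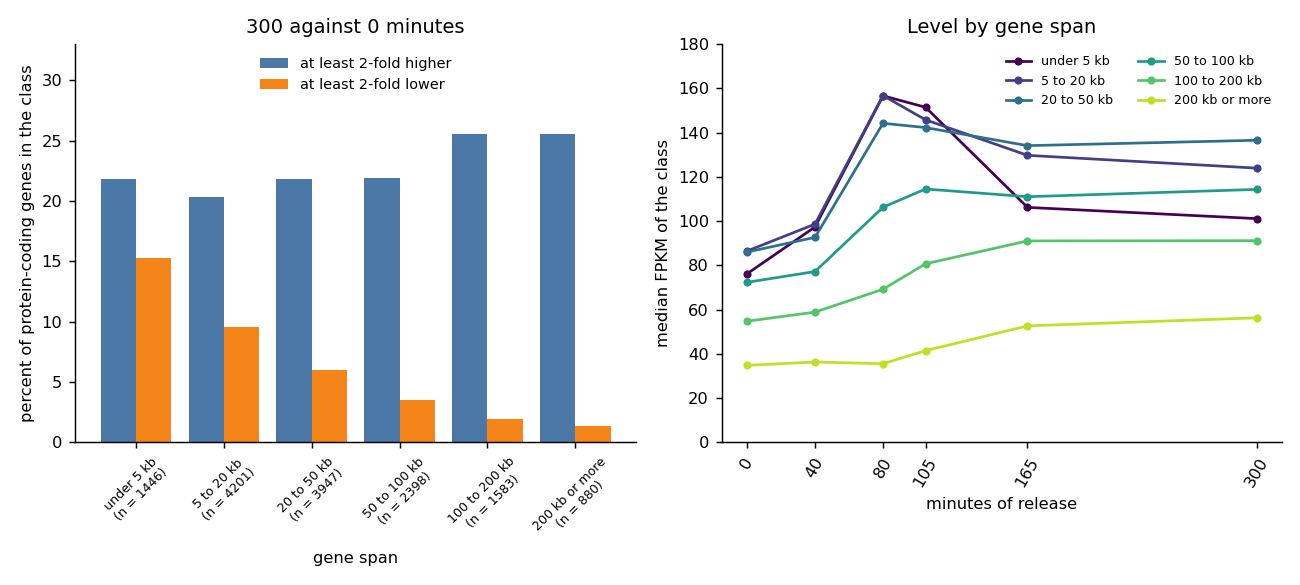
Left, the percent of protein-coding genes at least 2-fold higher (blue) and lower (orange) at 300 against 0 minutes in 6 classes of gene span, with the number of genes in brackets; right, the median FPKM of each class by minutes of release. The lower share is 15.3% under 5 kb and 1.36% at 200 kb or more, and the medians of the classes from 100 kb up are highest at 300 minutes.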

How the data were processed

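Nascent RNA of HUH7 cells was labelled with EU, captured and sequenced by the authors. The deposited table holds FPKM for RefSeq transcripts, 1 column to each of 7 groups, per the file headers. Bowtie2 2.2.9, TopHat, bcl2fastq, bedtools and hg19 are listed per the submitters' processing notes. The role of each, whether counting used strand, and how 3 libraries became 1 value are not given here in any source used. Antisense and overlapping genes are therefore uncertain.

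Of 48205 transcripts, 47127 (97.8%) were matched to genes by accession in a RefSeq table of GRCh38.p14, and transcripts were collapsed by averaging each gene's distinct sets of values. Genes with at least 10 FPKM in either column were kept. Differences of log2(FPKM + 1) understate those of low genes. With 1 value per group no test was possible, no p-value was computed, and a gene was called at 2-fold. The script was tested on simulated data. Coverage per sample is unknown apart from the steps described in the report, and step-based errors cover counting alone. Python 3.11.15, numpy 2.4.6, pandas 2.3.3, scipy 1.17.1 and matplotlib 3.10.9 were used.

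Named genes were the 15 largest differences each way among coding genes and long noncoding RNAs, where one column had 100 FPKM or more and the other no less than 5, the 8 largest each way without the lower floor, the 3 largest each way of other RNA classes, up to 4 and 2 members per list, and 8 set genes. The 23 lists hold 975 different symbols. Members and lists were chosen with earlier results of these data known. The motifs described were searched as spelled in the report, on both strands, in 250 bases before the start (RefSeq promoters), the CArG box by its own pattern, and hits may overlap. Alternatives covered the pseudocount, the filter, the scaling and the collapse to genes. A few named genes are not reported here.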

Additional observations from a re-analysis of the deposited data

How the results depend on the processing

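The count of genes at least 2-fold higher, 4148 as deposited, was 1796 once the median of all genes was subtracted, 1799 after quantile normalization and 1545 after division by column sums. The count lower, 1463 as deposited, was 3239 relative to the median, 3551 after division by column sums, 935 with a pseudocount of 5 FPKM, 2240 at a filter of 1 FPKM and 348 at 100 FPKM. Other settings, with at least 20 steps or coding genes alone added after seeing the data, moved either count by under 1.5 times. The cause of these shifts was not tested. No paired analysis was possible because each group has 1 pooled value; for the same reason no library could be left out.

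List medians relative to all genes changed sign as follows. At a filter of 1 FPKM they were 0.0572 for p53 targets, 0.1204 for proteasome subunits, 0.0329 for liver transcription factors, 0.0065 for actin genes and -0.74 for stroma markers. At 100 FPKM they were 0.0267 for early G1 regulators, -0.14 for ribosomal proteins, -0.16 for oxidative phosphorylation, -0.18 for splicing factors, 0.0536 for liver secreted genes, -0.34 for adhesion genes, -0.215 for long noncoding RNAs, 0.19 for interferon-stimulated genes and -0.10 for stroma markers. After quantile normalization they were -0.0077 for G1/S genes, -0.0262 for ribosomal proteins, -0.0916 for oxidative phosphorylation and 0.13 for interferon-stimulated genes. With genes of 1 set of values alone they were 0.40 for early G1 regulators, 0.0584 for liver secreted genes and -0.34 for stroma markers, and with a pseudocount of 5 FPKM -0.0043 for adhesion genes. Of the named genes' values under these settings 1875 stayed on their side of 2-fold, 90 no longer reached it, 30 newly reached it and 0 past it turned round. Settings that only change which genes are kept cannot move a gene's value, so much of the 1875 was fixed in advance. Relative to the all-gene median 144 stayed, 23 no longer reached 2-fold and 9 newly did. The same counts were 133, 33 and 10 after quantile normalization, and 139, 27 and 10 after division by column sums. Depth limits short genes most: 1372 compared genes had under 20 steps at both times.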

Other observations

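Gene families are given here as values, chosen by symbol after their values were seen, so their counts support nothing by themselves. Some members are also in the lists above, among them MCM2 to MCM7, several kinesins and several KLF genes. Among all compared genes 22.8% were higher and 8.04% lower, with a median of 0.43. Clustered protocadherins, adhesion proteins of the cell surface whose genes lie in arrays on chromosome 5, had 37 of 43 compared members at least 2-fold higher at 300 minutes and 1 lower, with a median of 2.06. Their median level was 26.7 FPKM at 0 minutes, 30.6 at 40, 45.999 at 80, 47.04 at 105, 75.8 at 165 and 141 at 300 minutes, and 27 of the 37 first passed their midpoint at 165 minutes. Alpha and gamma members share exons and overlap, so these are not 43 separate measurements.

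Zinc finger genes of the ZNF series, many of them repressors of transposable elements, had 238 of 468 higher and 5 lower, with a median of 1.03. On chromosome 19, where large clusters lie, 141 of 237 were higher and 4 lower with a median of 1.13, and on other chromosomes 97 of 231 were higher and 1 lower with a median of 0.88. Of the 238, 137 (57.6%) passed the midpoint at 80 minutes, against 44.6% of all higher genes and 10.8% of the higher protocadherins. The protocadherin differences were larger, and whether the timing goes with that size was not tested. Similar copies can share reads.

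All 4 compared AKR1C genes were higher, with AKR1C3 at 66.8 FPKM at 300 minutes and 20.4 at 0 minutes and AKR1C4 at 27.8 FPKM at 300 minutes and 9.35 at 0 minutes. Bitter taste receptor genes, intronless and short, had 12 of 18 higher and 0 lower. The replicative helicase genes MCM2 to MCM7 had 4 of 6 higher, with differences from 0.14 for MCM2, at 127 FPKM at 300 minutes and 116 at 0 minutes, to 2.15 for MCM5. Kinesins were divided, with 3 of 35 higher and 6 lower: KIF12 was at 224 FPKM at 300 minutes and 54.2 at 0 minutes, and KIF18B at 47.6 FPKM at 300 minutes and 201 at 0 minutes. Genes of mitochondrial ribosomal proteins had 24 of 77 higher and 0 lower, and KLF factor genes 0 of 14 higher and 5 lower.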
